A study of Mus musculus with 2207 samples.

Results

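The neurons described here were 518 of the 2207 single nuclei of the series, 253 labelled WT and 265 labelled Ehmt1delta/+, all sorted into 96-well plates. They were the nuclei that the authors called Neuron in the 96-well table, split by the genotype in their names. Both groups were C57BL/6 mice of 14 weeks of age, wild type (Ehmt1+/+) or Ehmt1delta/+, and by label both had received tamoxifen 2 times at 3 weeks of age, each at 100 mg/kg. The study's methods place 1 week between the doses. Nuclei of the cortex were pooled from 3 mice of each genotype, and total RNA of each nucleus was sequenced by RamDA-seq, a full-length method that also reads RNA without a poly(A) tail. The labels do not say from which mouse a nucleus came, and each genotype was therefore 1 sample. No p-value is therefore given, and the direction of every difference describes these pools. The nuclei of a pool came from 4 plates, numbered 2, 3, 4 and 5 for WT and 2, 4, 5 and 7 for Ehmt1delta/+, and the spread between plates is technical. The 3 codes used for both genotypes recur with the same well names, so a code stands for more than 1 plate. A second pair of pools in 384-well plates, with 285 WT and 306 Ehmt1delta/+ neurons, was set beside them. The labels give these mice the *Ehmt1* iTg transgene without CamKII-CreER, whereas the study's legend describes its groups as carrying CamKII-CreER, and which description holds was not tested.

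*Ehmt1* encodes GLP, which forms a complex with its partner G9a (*Ehmt2*) and places 1 or 2 methyl groups on lysine 9 of histone H3, a mark of repressed euchromatic genes. Loss of 1 copy of EHMT1 causes Kleefstra syndrome, and the Ehmt1delta/+ mouse is its model. Cortical neurons fall into excitatory cells, which load glutamate into vesicles through the transporter *Slc17a7*, and inhibitory cells, which make GABA with *Gad1* and *Gad2*. A mean over all neurons of a pool can differ because the mix of these classes differs or because a class expresses a gene at another level, and the data below keep the 2 parts separate.

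The RNA of the targeted gene went against the label. *Ehmt1* was at 19.04, 18.7, 18.6 and 18.6 RPKM (reads per kilobase of exon, scaled to the reads of the nucleus) in the 4 WT plates and at 30.7, 30.3, 32.5 and 31.2 RPKM in the 4 plates labelled Ehmt1delta/+. Every plate labelled Ehmt1delta/+ was above every WT plate, in excitatory nuclei (17.8 against 30.5 RPKM) as well as inhibitory ones (21.6 against 34.3 RPKM), and in the 384-well pools (19.5 against 31.7 RPKM). The value counts reads over the whole gene (chr2:24789928-24919614, mm10) and so cannot show whether 1 allele lacks its deleted part. All directions below rest on the genotype labels. *Ehmt2* stood at 26.6 and 25.5 RPKM with overlapping plates.

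The cell type label held for nearly all of these nuclei. *Snap25*, a protein of the synaptic vesicle fusion machinery, was above 0 in 253 of 253 WT and 265 of 265 labelled Ehmt1delta/+ neurons, at a mean of 130 and 131 RPKM. The summed level of 8 neuron genes ran from 121 to 590 RPKM in WT and from 70.9 to 593 RPKM in labelled Ehmt1delta/+ neurons. This sum alone did not separate cell types, since it reached 361 and 119 RPKM in oligodendrocytes and 234 and 183 RPKM in microglia. The 15 microglia genes together did not exceed 51.4 and 62.5 RPKM in neurons, against at least 1016 and 2100 RPKM in microglia. The 12 oligodendrocyte genes reached 49.0 and 437 RPKM in neurons, against at least 2632 and 2503 RPKM in oligodendrocytes. Without the pair described next, the oligodendrocyte sum still reached 387 RPKM in neurons labelled Ehmt1delta/+. A pair of nuclei on plate 5 labelled Ehmt1delta/+ stood apart, with *Snap25* at only 18.3 and 14.7 RPKM. They held *Pdgfra* at 343 and 340 RPKM and *Cspg4* at 243 and 263 RPKM, genes known from oligodendrocyte precursors, whereas no other neuron exceeded 7.06 RPKM of *Pdgfra* or 4.72 RPKM of *Cspg4*. *Rbfox3*, *Gad2* and *Slc32a1* were at 0 in both, but their *Gad1* of 23.3 and 18.7 RPKM placed them in the inhibitory class, and the values of this class given below include them unless they are said to be left out. Depth was alike between the pools, with a median of 343803 reads in WT (256050 to 539103) and 352622 reads in labelled Ehmt1delta/+ neurons (240330 to 490697), and a median of 16411 and 15966 genes above 0.

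Fewer of the neurons labelled Ehmt1delta/+ were inhibitory. Each nucleus was put in the class whose gene, *Slc17a7* or *Gad1*, had the larger value. By this rule 62 of 253 WT neurons were inhibitory (24.5%, exact Clopper-Pearson 95% interval 19.3 to 30.3, covering counting error only) against 43 of 263 labelled Ehmt1delta/+ neurons (16.3%, 12.1 to 21.4). In 2 further nuclei neither gene was larger. The WT plates held 22.2%, 26.6%, 19.7% and 29.2% inhibitory nuclei and the labelled Ehmt1delta/+ plates 15.3%, 13.4%, 22.9% and 13.4%. Plate 5 labelled Ehmt1delta/+ lay above 2 of the WT plates, so the plates overlapped. Without the pair of *Pdgfra* nuclei the share was 41 of 261, or 15.7%. The 384-well pools gave 73 of 283 (25.8%) and 52 of 305 (17.05%). Nuclei were sorted by DNA stain without a neuron or class gate, and whether nuclei of the 2 classes were recovered equally was not tested.

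**Figure D1:**
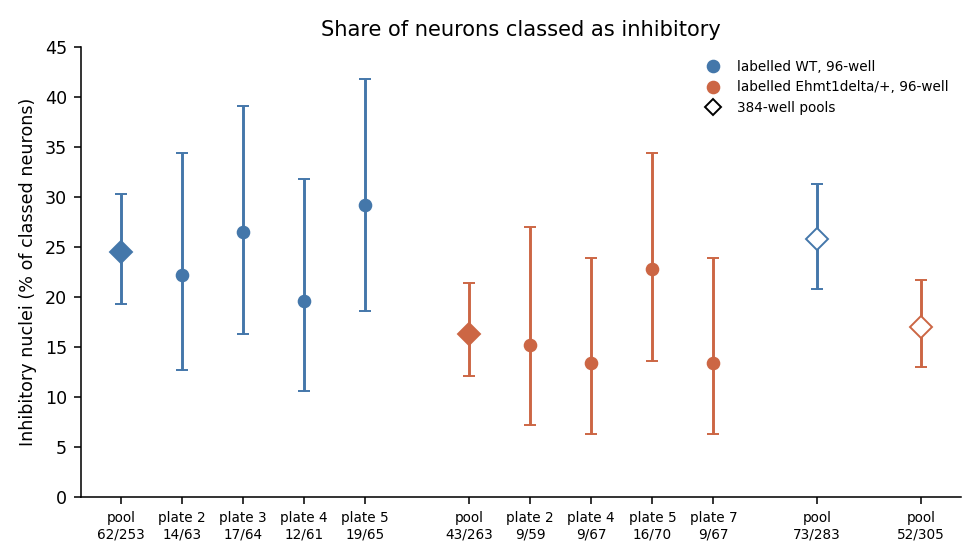
Inhibitory nuclei as a percent of the neurons with a class, per plate (circles) and per pool (diamonds), with exact 95% intervals for counting error and the counts under each point. The 96-well WT pool lies at 24.5% and the pool labelled Ehmt1delta/+ at 16.3%, and plate 5 labelled Ehmt1delta/+ lies at 22.9%, within the range of the WT plates.

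Within the inhibitory class the makeup was less certain, since the counts were small. The gene with the largest value among *Sst*, *Pvalb*, *Vip* and *Lamp5* was *Sst* in 23 of 62 WT and 17 of 43 labelled Ehmt1delta/+ inhibitory nuclei, and *Pvalb* in 13 and 9. It was *Vip* in 10 WT nuclei (16.1%, 8.02 to 27.7) and 3 labelled Ehmt1delta/+ nuclei (6.98%, 1.46 to 19.06), and *Lamp5* in 12 (19.4%, 10.4 to 31.4) and 14 (32.6%, 19.08 to 48.5). Without the pair of *Pdgfra* nuclei the 4 counts were 17, 8, 3 and 13 of 41. The intervals of each of the 4 groups overlapped between the pools. Within the excitatory class the largest of *Cux2*, *Rorb*, *Fezf2* and *Foxp2* was *Cux2* in 35.6% and 35.9% of nuclei, *Rorb* in 23.04% and 19.5% and *Fezf2* in 31.9% and 28.6%. *Foxp2*, a marker of deep corticothalamic cells, was the largest in 11 of 191 WT (5.76%, 2.91 to 10.1) and 24 of 220 labelled Ehmt1delta/+ excitatory nuclei (10.9%, 7.12 to 15.8).

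Across 26120 genes that were above 0 in at least 10% of the neurons of 1 genotype, most mean levels were close, with a median log2 ratio of labelled Ehmt1delta/+ to WT of -0.02. The ratio was taken after adding 0.1 RPKM to both means, which understates the ratio of low genes. It passed 2-fold higher for 162 genes (0.62%) and 2-fold lower for 419 (1.6%). Counting a gene as separated where the 4 plate means of one genotype all lay above the 4 of the other, 1231 genes (4.71%) were separated higher and 2207 (8.45%) lower. Both conditions held for 92 higher genes (0.352%) and 305 lower genes (1.17%).

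The inhibitory shares of 24.5% and 16.3% were too close to move a gene past 2-fold by themselves. Each of these genes therefore needed a level difference as well. Setting both pools to the same class shares left 82 of the 92 higher genes and 272 of the 305 lower genes past 2-fold. Written as a share part and a level part, the difference had a larger share part in 0 of the 92 higher and 1 of the 305 lower genes. On the higher side the small difference in shares fixed that outcome in advance. Within excitatory nuclei alone, 177 of 26018 genes (0.68%) were past 2-fold higher and 477 (1.83%) lower, 91 (0.35%) and 316 (1.21%) of them with separated plates. All 92 higher genes and 303 of the 305 lower genes had the same direction within excitatory nuclei, and 63 and 299 of them within inhibitory nuclei. Excitatory nuclei were 75.5% and 83.7% of the classed nuclei from which these genes were called, so their agreement was largely set in advance. The inhibitory nuclei entered the same pool means, and neither agreement is independent.

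The genes that led the higher side were X-linked copies of 1 family. Genes were ranked by the class-standardized ratio only among those with separated plates and the same direction in excitatory nuclei. Predicted genes known by a number only and some small RNAs were passed over. Of the 12 highest in this ranking, 6 were *Xlr3a*, *Xlr3b*, *Xlr3c*, *Xlr4a*, *Xlr4b* and *Xlr4c*, which lie between chrX:73074345 and chrX:73265390 (mm10). Xlr genes encode nuclear proteins related to the meiotic protein *Sycp3*, and *Xlr3b*, *Xlr4b* and *Xlr4c* are known as imprinted genes of the mouse brain. *Xlr4b* was at 0.181, 0.0398, 0.0192 and 0.0888 RPKM in the WT plates and at 2.04, 3.41, 2.14 and 1.11 RPKM in the plates labelled Ehmt1delta/+ (log2 ratio 3.64). *Xlr4a* was at 0.739, 0.295, 0.0667 and 0.203 RPKM against 4.90, 7.35, 3.64 and 2.18 RPKM (log2 ratio 3.43). *Xlr3b* was at 0.177, 0.951, 0.471 and 0.978 RPKM against 5.70, 4.70, 3.82 and 4.18 RPKM (log2 ratio 2.64). By the rule of the ranking, the lowest plate labelled Ehmt1delta/+ was above the highest WT plate in each of the 6 genes. *Xlr3a*, *Xlr3c* and *Xlr4c* had log2 ratios of 2.35, 2.67 and 2.64. More nuclei held the RNA: *Xlr3b* was above 0 in 24 of 253 WT neurons (9.49%) and 101 of 265 labelled Ehmt1delta/+ neurons (38.1%), and thinning each nucleus to 291080 reads, which left out 18 WT and 34 labelled Ehmt1delta/+ nuclei, gave 8.94% and 37.7%.

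The 6 genes are close copies, and their start sites are shown because the reads cannot be fully told apart between them. The windows run from 250 bases before to 50 after the annotated start (RefSeq, GRCm38.p6), 5′ to 3′ on the gene's strand, and capitals mark the longest stretch that the copies of Xlr3, or of Xlr4, share letter for letter.
Xlr3a: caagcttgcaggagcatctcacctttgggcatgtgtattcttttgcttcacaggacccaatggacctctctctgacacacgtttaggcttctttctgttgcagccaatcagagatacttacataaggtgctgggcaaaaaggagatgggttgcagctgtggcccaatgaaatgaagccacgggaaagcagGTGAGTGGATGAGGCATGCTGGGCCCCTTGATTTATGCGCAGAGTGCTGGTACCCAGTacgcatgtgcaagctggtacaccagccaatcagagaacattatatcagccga
Xlr3b: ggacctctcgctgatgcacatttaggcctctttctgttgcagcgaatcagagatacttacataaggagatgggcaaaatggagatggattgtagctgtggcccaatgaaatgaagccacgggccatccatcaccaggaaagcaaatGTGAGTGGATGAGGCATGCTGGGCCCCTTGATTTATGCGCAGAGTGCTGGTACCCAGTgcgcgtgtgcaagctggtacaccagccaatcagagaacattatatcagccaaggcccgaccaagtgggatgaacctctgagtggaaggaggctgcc
Xlr3c: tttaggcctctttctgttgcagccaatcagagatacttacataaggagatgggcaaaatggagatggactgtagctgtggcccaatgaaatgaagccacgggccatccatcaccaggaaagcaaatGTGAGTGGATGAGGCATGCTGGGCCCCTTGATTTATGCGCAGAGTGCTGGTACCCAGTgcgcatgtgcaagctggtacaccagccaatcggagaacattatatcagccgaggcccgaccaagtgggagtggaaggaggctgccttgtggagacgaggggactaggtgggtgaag
Xlr4a: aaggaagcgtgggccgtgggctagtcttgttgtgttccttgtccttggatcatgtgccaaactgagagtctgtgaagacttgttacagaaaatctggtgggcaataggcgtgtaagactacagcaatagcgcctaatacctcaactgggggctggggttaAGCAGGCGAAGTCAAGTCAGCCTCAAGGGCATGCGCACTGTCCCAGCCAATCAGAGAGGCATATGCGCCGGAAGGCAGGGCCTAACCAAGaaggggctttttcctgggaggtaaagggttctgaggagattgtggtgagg
Xlr4b: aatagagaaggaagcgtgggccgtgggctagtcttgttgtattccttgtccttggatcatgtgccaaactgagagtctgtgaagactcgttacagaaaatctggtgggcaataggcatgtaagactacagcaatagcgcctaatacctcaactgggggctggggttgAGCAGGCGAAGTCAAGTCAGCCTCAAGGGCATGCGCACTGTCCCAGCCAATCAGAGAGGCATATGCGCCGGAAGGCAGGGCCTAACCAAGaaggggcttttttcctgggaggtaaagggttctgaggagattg
Xlr4c: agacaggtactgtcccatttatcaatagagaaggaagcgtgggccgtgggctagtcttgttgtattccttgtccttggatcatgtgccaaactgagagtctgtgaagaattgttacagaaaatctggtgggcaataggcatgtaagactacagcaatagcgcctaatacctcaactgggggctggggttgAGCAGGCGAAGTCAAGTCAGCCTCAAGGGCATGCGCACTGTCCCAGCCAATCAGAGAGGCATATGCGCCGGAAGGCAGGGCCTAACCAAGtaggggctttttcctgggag

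These windows lie at chrX:73097046-73097345, chrX:73191929-73192228, chrX:73265341-73265640, chrX:73082458-73082757, chrX:73214083-73214382 and chrX:73243081-73243380, on the plus strand for *Xlr3b* and *Xlr4b* and on the minus strand for the other four. The shared stretch has 58 bases in the 3 Xlr3 windows and 90 bases in the 3 Xlr4 windows, and each was found in no other of 32851 promoter windows on either strand. A run of 14 bases, CAGCCAATCAGAGA, was common to all 6 windows and was held by 16 of the 32851 windows (0.0487%). It contains CCAAT, which 37.4% of all windows hold on one strand or the other. In the transcripts the copies are closer still. Of the 50-base windows of the longest coding transcript, 93.3% of those of *Xlr3b* and 73.1% of those of *Xlr4b* occur letter for letter in a transcript of another gene. Accordingly, 2.4% of the *Xlr3b* values and 1.1% of the *Xlr4b* values above 0 in these neurons were whole reads within 0.01 of a read, and the source of the other values was not tested. The 6 values are therefore not independent, and which copies were transcribed cannot be told apart.

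The family was higher in other cells of the same pools too. In the 96-well oligodendrocytes the 6 genes had a median log2 ratio of 2.27, against 2.65 in the neurons, and *Xlr3b* was at 1.55 and 6.28 RPKM there. In the 384-well neurons 3 of the 6 were tested and all 3 had a ratio above 0, with a smaller median log2 ratio of 0.73.

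A second set of close copies on the higher side was *Apol7b* and *Apol7e*, which encode apolipoprotein L proteins. *Apol7b* was at 0.142, 0.0495, 0 and 0.00384 RPKM in the WT plates and at 1.12, 0.675, 0.199 and 1.32 RPKM in the plates labelled Ehmt1delta/+. *Apol7e* followed at 0.0390, 0.0433, 0 and 0 RPKM against 0.871, 0.430, 0.152 and 0.841 RPKM. Their RNA lay in the excitatory class, at 0.977 and 0.674 RPKM in labelled Ehmt1delta/+ excitatory nuclei and at 0 in the inhibitory ones. In the 384-well pools *Apol7b* was at 0.0154 and 0.599 RPKM, a log2 ratio of 2.60 beside 2.61 in the 96-well pools. The start windows of both are shown with the stretch of 162 bases that they share in capitals.
Apol7b: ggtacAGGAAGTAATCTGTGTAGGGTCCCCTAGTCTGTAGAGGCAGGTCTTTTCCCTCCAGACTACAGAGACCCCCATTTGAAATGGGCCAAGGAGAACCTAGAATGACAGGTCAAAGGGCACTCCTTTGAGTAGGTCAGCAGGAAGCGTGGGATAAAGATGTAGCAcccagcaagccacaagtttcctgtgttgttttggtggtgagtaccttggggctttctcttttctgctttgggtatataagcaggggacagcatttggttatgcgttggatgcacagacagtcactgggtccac
Apol7e: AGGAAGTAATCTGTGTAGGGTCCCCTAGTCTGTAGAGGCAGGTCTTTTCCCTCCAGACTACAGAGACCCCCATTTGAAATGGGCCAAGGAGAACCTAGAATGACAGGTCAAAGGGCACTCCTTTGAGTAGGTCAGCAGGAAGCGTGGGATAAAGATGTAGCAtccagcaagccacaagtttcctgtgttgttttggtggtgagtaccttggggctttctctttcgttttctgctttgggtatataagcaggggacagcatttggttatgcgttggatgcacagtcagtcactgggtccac

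They lie at chr15:77447411-77447710 on the minus strand and chr15:77698639-77698938 on the plus strand. Of the 50-base windows of the coding transcripts, 75.6% of *Apol7b* and 76.0% of *Apol7e* occur in another gene, so these values share reads as well.

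Genes outside these families also led the higher side. *Aspg*, an asparaginase (chr12:112106679-112127559), was at 0.153, 0.189, 0.764 and 1.19 RPKM in the WT plates and at 4.58, 7.53, 2.59 and 4.46 RPKM in the plates labelled Ehmt1delta/+, and 0% of its transcript windows occur in another gene. Its RNA was in excitatory nuclei (0.760 against 5.71 RPKM), and 19 WT and 38 labelled Ehmt1delta/+ neurons held it. *Krt80*, a keratin, was at 1.01 and 5.48 RPKM, again from excitatory nuclei, while both inhibitory means were 0. *Loxl2*, a collagen cross-linking oxidase, was above 0 in 28.9% of WT and 75.5% of labelled Ehmt1delta/+ neurons, at 0.279 and 1.32 RPKM. In the 384-well pools *Loxl2* was at 1.58 and 1.75 RPKM, and 45.8% of its transcript windows occur in another gene. *Neb*, the thin-filament protein nebulin, was at 0.186 and 0.931 RPKM, with 0.297 and 3.27 RPKM in inhibitory nuclei.

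**Figure D2:**
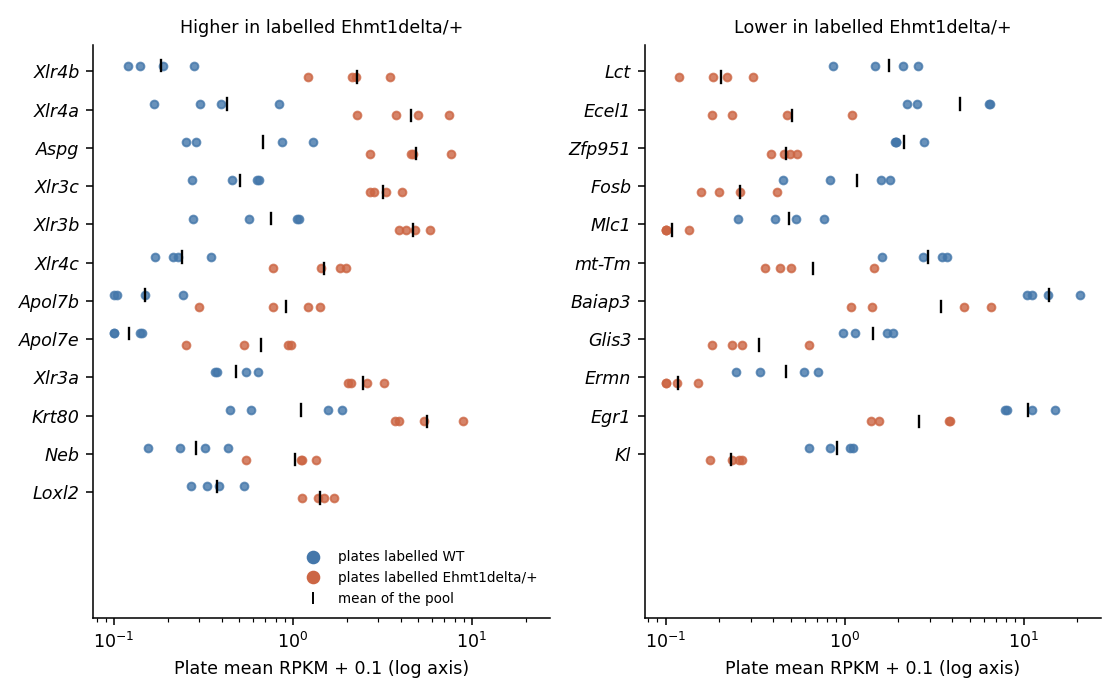
Mean RPKM plus 0.1 on a log axis for each 96-well plate (points) and each pool (black bars), for the 12 genes highest and 11 of the 12 lowest by class-standardized ratio among those with separated plates and the same direction in excitatory nuclei. In each row the 4 points of one genotype lie to one side of the 4 points of the other, and Xlr4b differs by a log2 ratio of 3.64.

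In the immune lists the genes past 2-fold higher with separated plates were few and lay in the inflammasome and complement lists. Of 5 inflammasome genes tested only *Casp1*, the protease that cuts pro-interleukin 1 beta, was past 2-fold with separated plates, at 0.158, 0.400, 0.730 and 0.424 RPKM in WT and 1.30, 1.90, 1.05 and 1.99 RPKM in labelled Ehmt1delta/+ plates. Its level was higher in both classes, with 0.488 against 1.69 RPKM in excitatory and 0.233 against 0.849 RPKM in inhibitory nuclei, and of the difference between the pool means 1.08 RPKM was the level part and 0.0446 RPKM the share part. The adaptor gene *Pycard* stood at 4.76 and 4.60 RPKM. Over all genes, 0.352% passed both conditions higher and 1.17% lower. Of 10 complement genes tested, 3 passed in the higher direction and none in the lower: *C1s1* (0.556 against 2.07 RPKM), *C1ra* (0.899 against 2.03 RPKM) and *C1rb* (0.362 against 0.825 RPKM), neighbours on chromosome 6 that encode the proteases of the first complement component. With equal class shares *C1s1* alone stayed past 2-fold, and *C1ra* and *C1rb* had log2 ratios of 0.96 and 0.89 (0.98 and 0.92 within excitatory nuclei). *C1ra* and *C1rb* were at 0 in all inhibitory nuclei of both pools. *C1ra* and *C1rb* are copies of each other, with 50.8% and 60.5% of their transcript windows found in another gene. *C3ar1*, the receptor for complement fragment C3a, was separated higher at 0.361 and 0.641 RPKM but not past 2-fold.

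Interferon response genes leaned the same way without passing. Of 13 tested, 11 had a ratio above 0 and none was past 2-fold, with a median log2 ratio of 0.32 against -0.02 for all genes. In this list 1 was separated higher (*Ifih1*, a sensor of double-stranded RNA, 0.201 against 0.373 RPKM) and 1 lower (*Irf7*, 0.721 against 0.511 RPKM). Over all genes, 4.71% were separated higher and 8.45% lower. In the 384-well pools the list had 7 ratios above 0 and 6 below, with a median of 0.01. In the MHC class I list 8 of 9 ratios were below 0. *B2m*, the shared light chain of class I molecules, was at 13.9, 8.27, 7.96 and 7.32 RPKM in WT and 4.94, 2.83, 2.23 and 6.34 RPKM in labelled Ehmt1delta/+ plates, and *B2m* was lower in oligodendrocytes as well (27.5 against 3.63 RPKM). *H2-T23* was separated higher, at 4.93 and 7.10 RPKM. Microglia genes did not move with these differences: of 6 tested, none was past 2-fold or separated, and their median log2 ratio was -0.01, with *P2ry12* at 2.33 and 2.26 RPKM.

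Genes of inhibitory neurons were lower in the pool means, and 12 of the 21 lay above 0 once class shares were made equal. All 21 had a ratio below 0 over all neurons, with a median log2 ratio of -0.40. With equal class shares the median was 0.13, and within inhibitory nuclei it was 0.19. *Gad1* had a pool mean of 18.8 and 12.3 RPKM, and within inhibitory nuclei it was at 69.5 and 73.6 RPKM. Since *Gad1* also sets the class, its level there depends on the class rule and cannot show an even level. *Gad2* was at 50.005 and 71.0 RPKM within inhibitory nuclei, *Adarb2*, which marks interneurons of the caudal ganglionic eminence, at 69.4 and 69.0 RPKM, and *Lhx6*, which marks those of the medial eminence, at 13.6 and 19.99 RPKM. In the 384-well pools all 21 ratios were below 0 as well, with a median of -0.67, and with equal class shares 14 were still below 0 (median -0.14). Without the pair of *Pdgfra* nuclei the 96-well median was 0.12 with equal class shares and 0.19 within inhibitory nuclei, where the labelled Ehmt1delta/+ mean was 76.1 RPKM for *Gad1*, 74.5 RPKM for *Gad2*, 23.6 RPKM for *Slc32a1* and 119.7 RPKM for *Sst*.

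A few inhibitory genes were lower within the class too. *Slc32a1*, the vesicular GABA transporter, was at 43.01 and 22.5 RPKM in inhibitory nuclei, and its 4 plate means over all neurons (7.66, 14.3, 6.27 and 14.6 RPKM in WT against 2.82, 3.99, 4.48 and 5.01 RPKM) did not overlap. The transcription factor gene *Nr2f2* (3.85 against 1.72 RPKM in inhibitory nuclei) was also separated lower and past 2-fold over all neurons, with a log2 ratio of -1.40. *Prox1* had a different pattern. It was even within inhibitory nuclei (6.45 and 6.54 RPKM) but at 1.46 RPKM in WT excitatory nuclei against 0.0199 RPKM in labelled Ehmt1delta/+ ones.

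**Figure D3:**
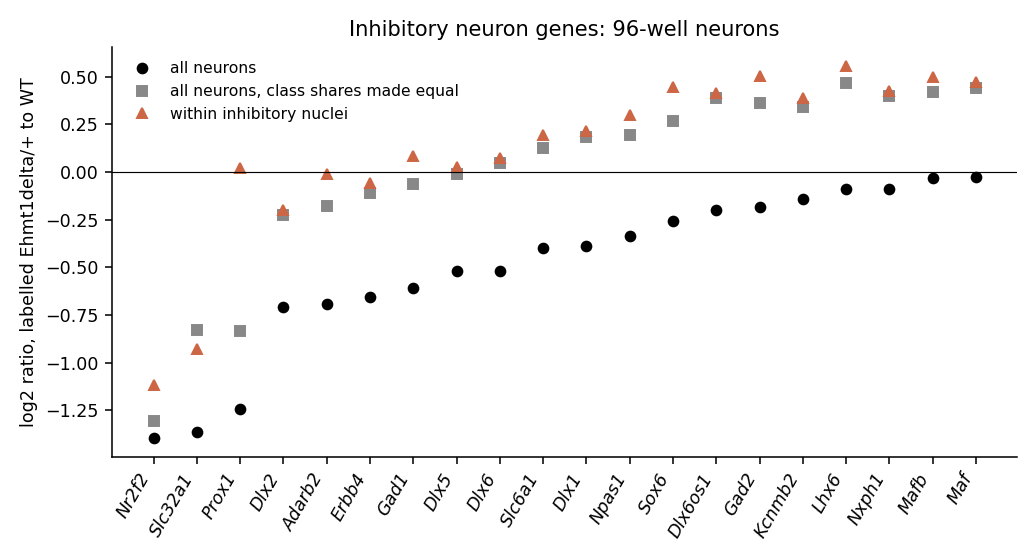
Log2 ratio of labelled Ehmt1delta/+ to WT for 20 of the 21 inhibitory neuron genes, over all neurons (circles), over all neurons with class shares made equal (squares) and within inhibitory nuclei (triangles). All circles lie below 0, while most squares and triangles lie above, and Nr2f2 and Slc32a1 have the lowest triangles. Over all 21 genes the medians were -0.40, 0.13 and 0.19.

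Neuropeptide and calcium-binding protein genes of interneurons, taken as 1 list, had lower levels, with overlapping plates. All 11 tested members of the list had a ratio below 0 (median log2 ratio -0.95, and -0.82 with equal class shares). Of them 5 were past 2-fold (1.6% of all genes were past 2-fold lower), and none was separated. *Sst* was at 55.7, 48.8, 312 and 38.8 RPKM in WT and 4.86, 9.96, 20.3 and 40.9 RPKM in labelled Ehmt1delta/+ plates, a mean of 443 and 114 RPKM within inhibitory nuclei. WT plate 4 was far above the others, and plate 7 labelled Ehmt1delta/+ lay above the lowest WT plate. *Vip* was at 79.1 and 35.9 RPKM within inhibitory nuclei, *Penk* at 40.8 and 19.8 RPKM, and *Npy* at 64.1 and 48.9 RPKM. *Cck*, which excitatory cells also make, was at 44.1 and 21.4 RPKM in excitatory nuclei. In the 384-well pools 8 of 10 members had a ratio below 0 (median -0.55), and 6 of 10 with equal class shares (median -0.14), while *Vip* was at 6.12 and 10.9 RPKM there.

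RNA of the other class moved with these results. Inhibitory genes summed to 18.4 RPKM in WT excitatory nuclei and 8.70 RPKM in labelled Ehmt1delta/+ ones, with 16 of 21 lower. *Gad1* was above 0 in 124 of 191 WT excitatory nuclei (64.9%) and 62 of 220 labelled Ehmt1delta/+ ones (28.2%), and *Slc17a7* in 52 of 62 (83.9%) and 28 of 43 (65.1%) inhibitory nuclei. Excitatory genes were lower in inhibitory nuclei for 10 of 11, and in oligodendrocytes for all 11, where they summed to 47.0 RPKM in WT and 14.0 RPKM in labelled Ehmt1delta/+. *Slc17a7*, which oligodendrocytes should lack, was above 0 in 61.6% of WT and 35.2% of labelled Ehmt1delta/+ oligodendrocytes. Inhibitory genes in oligodendrocytes were the exception, with 117 and 126 RPKM in sum and 8 of 21 lower. The part of other-class RNA in the lower values, including those of *Prox1* in excitatory nuclei, was not tested.

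Excitatory identity was close between the pools. Of 11 excitatory genes none was past 2-fold, with a median log2 ratio of -0.04 over all neurons and -0.11 within excitatory nuclei. *Slc17a7* was at 93.4 and 79.2 RPKM within excitatory nuclei, a class that it also sets. The calcium-dependent kinase gene *Camk2a* was at 138 and 128 RPKM there, and *Arpp21* at 103 and 117 RPKM. *Tbr1*, a transcription factor of layer 6, was the 1 separated member, at 10.1, 10.3, 9.17 and 11.7 RPKM in WT and 15.04, 13.2, 15.6 and 15.996 RPKM in labelled Ehmt1delta/+ plates, but was at 11.5 and 11.3 RPKM in the 384-well pools. The upper layer, layer 4 and 5a, and deep layer lists had median log2 ratios of -0.01, 0.03 and 0.12. *Rorb* of layer 4 was at 6.16 and 6.29 RPKM. The deep layer gene *Foxp2* was at 1.38, 1.95, 1.42 and 2.70 RPKM against 2.13, 2.91, 4.27 and 2.83 RPKM with overlapping plates. *Nr4a2*, a deep layer gene that activity also induces, was past 2-fold lower with separated plates, at 4.56 and 2.19 RPKM.

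Immediate early genes, which neurons switch on within minutes of activity, were lower as a group. All 18 tested had a ratio below 0, 9 were past 2-fold (1.6% of all genes were) and 8 of these had separated plates (1.17% of all genes), with a median log2 ratio of -0.99. With equal class shares 8 were past 2-fold, 7 of them with separated plates, and the median was -0.97. *Egr1* was at 7.82, 7.95, 11.05 and 14.9 RPKM in the WT plates and 3.71, 1.31, 1.46 and 3.80 RPKM in the plates labelled Ehmt1delta/+. It was lower in both classes, at 9.90 and 2.83 RPKM in excitatory and 12.1 and 1.05 RPKM in inhibitory nuclei. *Fosb* was at 0.356, 0.734, 1.71 and 1.502 RPKM against 0.0578, 0.321, 0.0994 and 0.159 RPKM, and was above 0 in 28.1% and 9.06% of neurons. *Arc*, which regulates AMPA receptors at synapses, was at 19.097, 29.8, 34.2 and 38.1 RPKM against 17.3, 13.6, 10.7 and 16.7 RPKM. *Junb*, *Btg2*, *Ier2*, *Egr4* and *Dusp1* completed the 8. Others differed less: *Nr4a1* was at 27.3 and 21.3 RPKM, *Npas4*, which answers calcium entry through channels, at 8.04 and 6.94 RPKM, and *Nr4a3* at 6.13 and 5.92 RPKM. The list was lower in the oligodendrocytes of the same pools as well (median log2 ratio -0.92 over 14 tested), and in the 384-well neurons 12 of 18 ratios were below 0, with a median of -0.39.

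The lower list was led by genes of different kinds. By class-standardized ratio, ranked under the same rule as the higher side, the 12 lowest included *Lct*, *Ecel1*, *Zfp951*, *Fosb*, *Mlc1*, *mt-Tm*, *Baiap3*, *Glis3*, *Ermn*, *Egr1* and *Kl*. *Lct*, the intestinal lactase, was at 2.49, 1.38, 0.764 and 2.02 RPKM in WT and 0.210, 0.0834, 0.0184 and 0.121 RPKM in labelled Ehmt1delta/+ plates, but at 1.02 and 1.28 RPKM in the 384-well pools. *Ecel1*, a neuronal membrane metalloprotease, was at 6.39, 6.31, 2.44 and 2.13 RPKM against 0.135, 1.005, 0.376 and 0.0819 RPKM, and at 5.18 and 4.25 RPKM in the 384-well pools. *Baiap3*, a Munc13-related protein of dense-core vesicle release, was at 35.7 and 6.75 RPKM in inhibitory and 6.72 and 1.80 RPKM in excitatory nuclei, and at 24.7 and 10.8 RPKM in the 384-well pools. *Glis3* and *Kl*, which encodes Klotho, were at 1.33 against 0.231 RPKM and 0.810 against 0.132 RPKM.

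Some of the lowest genes belong to glia. *Ermn*, an oligodendrocyte gene, was above 0 in 31 WT and 2 labelled Ehmt1delta/+ neurons, and *Mlc1*, an astrocyte gene, in 26 and 2. Over the whole lists, 10 oligodendrocyte genes tested had 1 past 2-fold higher and 1 lower (median log2 ratio 0.06, and -0.14 without the pair of *Pdgfra* nuclei), and their summed level in neurons ran from 0.420 to 49.0 RPKM in WT and 0.809 to 437 RPKM in labelled Ehmt1delta/+ (up to 387 RPKM without the pair). Over all genes, 0.62% were past 2-fold higher and 1.6% lower, 1.17% were lower by both conditions and 4.71% were separated higher. Of 7 astrocyte genes tested, 6 had a ratio below 0 and 3 were past 2-fold lower. Of these 3, 2 had separated plates, *Aldoc* (4.53 against 2.21 RPKM) and *Gfap* (0.523 against 0.203 RPKM), while 1 other astrocyte gene was separated higher, *Aldh1l1* (1.06 against 1.61 RPKM). The summed level of the 9 listed astrocyte genes, most of it *Slc1a2*, which neurons also hold (51.6 and 49.8 RPKM), had a median of 43.01 RPKM in WT and 49.2 RPKM in labelled Ehmt1delta/+ neurons. The astrocyte list had a median log2 ratio of -0.98 in neurons, -1.24 in oligodendrocytes and 0.02 over 4 tested in the 384-well neurons. Of 2 vascular genes tested none was past 2-fold (median 0.03), and the 2 tested genes of oligodendrocyte precursors had a median of 2.10 that rested on the pair of *Pdgfra* nuclei (-0.59 without them). The part of glial RNA in these values was not tested.

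Mitochondrially encoded RNA was lower in every tested gene of its list, and the direction depended on the plate format. In the 96-well neurons all 19 tested genes were past 2-fold lower with separated plates, with a median log2 ratio of -1.81 (1.17% of all genes were called by this rule). *mt-Co3*, a subunit of cytochrome c oxidase, was at 36.0, 36.8, 42.4 and 36.1 RPKM in WT and 10.5, 13.5, 8.23 and 9.21 RPKM in labelled Ehmt1delta/+ plates. The median share of a neuron's summed RPKM that was mitochondrial was 0.385% in WT and 0.0904% in labelled Ehmt1delta/+ nuclei. The oligodendrocytes of the same pools had a median ratio of -1.38, and the summed mean in microglia was 12868 and 3146 RPKM. In the 384-well neurons all 18 tested genes had the opposite sign, with a median log2 ratio of 1.09 and *mt-Co3* at 20.997 and 42.1 RPKM. These RNAs are made in mitochondria, outside the nucleus, and how they came into the samples was not tested. The share of mitochondrial reads was also among the measures by which the authors filtered nuclei. A further 7 of the 305 lower genes were predicted genes between chr1:24611535 and chr1:24616197, in a stretch known as a nuclear copy of mitochondrial sequence, with median log2 ratios of -1.77 (96-well neurons) and 1.15 (384-well neurons).

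Other RNAs abundant outside the nucleus were lower by less. Over all genes, 8.45% were separated lower. Of 85 cytosolic ribosomal protein genes 79 had a ratio below 0 and 30 were separated lower. Their median log2 ratio was -0.30 in neurons, -0.43 in oligodendrocytes and -0.13 in the 384-well neurons. The 1 member past 2-fold with separated plates was *Rplp1*, at 13.6 and 5.74 RPKM. Among 9 stress genes 8 had a ratio below 0 and 6 were separated lower, with *Hspa8*, a constitutive heat shock chaperone, at 19.4, 24.4, 22.2 and 27.7 RPKM against 10.4, 7.19, 8.47 and 10.6 RPKM. The list's median was -0.60, beside 0.02 in 384-well neurons. Of 8 general neuron genes, *Tubb3* (10.4 against 4.59 RPKM) and *Nefl* (5.95 against 2.65 RPKM), which encode cytoskeletal proteins of the axon, were past 2-fold lower with separated plates, while *Map2* and *Rbfox3* had log2 ratios of 0.01 and 0.09. The same 8 genes had a median log2 ratio of -1.78 in oligodendrocytes and 0.02 in the 384-well neurons. These lists moved with the mitochondrial share and the other-class RNA of the 96-well pools, and whether the immediate early genes and *B2m* moved for the same reason was not tested.

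**Figure D4:**
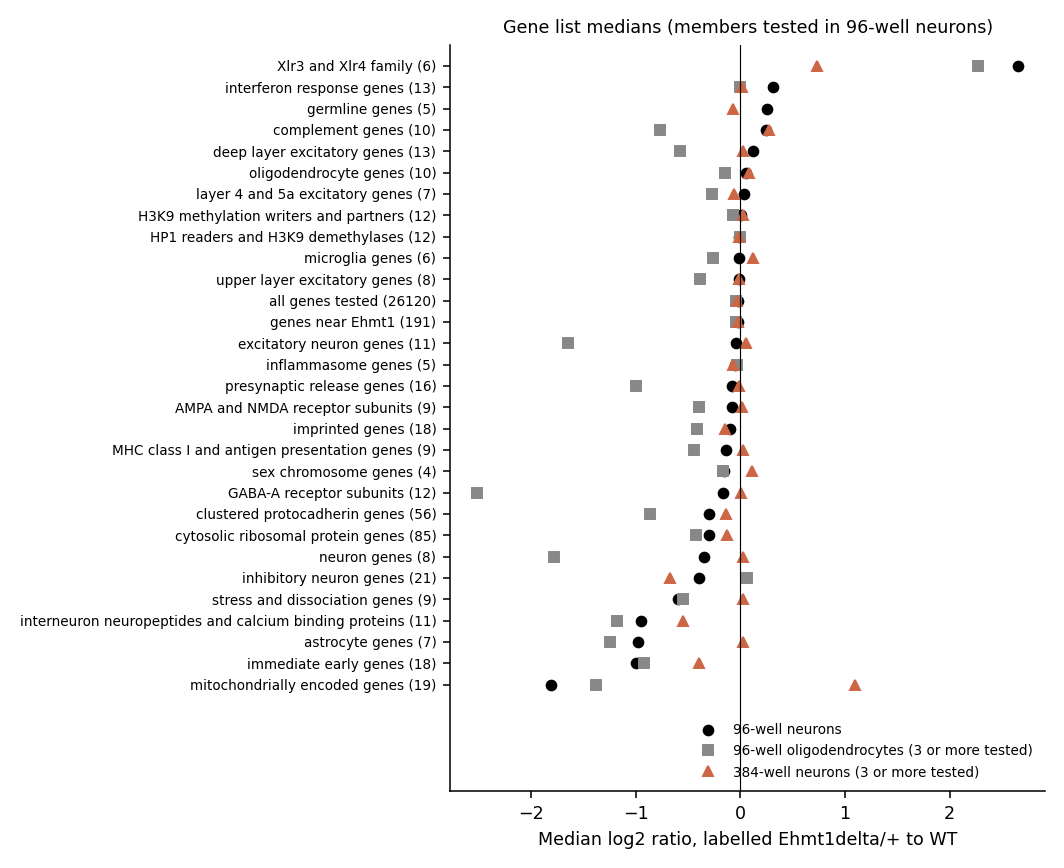
Median log2 ratio of labelled Ehmt1delta/+ to WT for each gene list with 3 or more tested members, in 96-well neurons (circles), 96-well oligodendrocytes (squares) and 384-well neurons (triangles), with the number of members tested in 96-well neurons in brackets. The Xlr list lies at 2.65, 2.27 and 0.73, and the mitochondrial list at -1.81, -1.38 and 1.09.

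Synaptic genes differed little. None of 16 presynaptic release genes was past 2-fold, and their median log2 ratio was -0.08. Of these, 5 were separated lower, as were 8.45% of all genes: *Cplx1* (17.9 against 10.7 RPKM), *Rab3a* (19.3 against 13.4 RPKM), *Sv2a* (63.2 against 47.1 RPKM), *Syt1*, the calcium sensor of release (93.2 against 68.1 RPKM), and *Vamp2* (26.6 against 19.4 RPKM). *Unc13a* was at 80.8 and 89.4 RPKM. Among 9 glutamate receptor subunits *Gria2* was at 129 and 129 RPKM, *Grin1* at 61.9 and 60.6 RPKM, and *Gria1* was the 1 separated member, at 68.4, 57.5, 71.3 and 79.7 RPKM against 54.6, 53.8, 52.3 and 51.9 RPKM. *Gria1* was lower in excitatory (62.1 against 42.9 RPKM) but not in inhibitory nuclei (91.3 against 105 RPKM). Of 12 GABA-A receptor subunits 10 had a ratio below 0 and 4 were separated lower. The 1 subunit past 2-fold was *Gabrg1*, at 2.04 and 0.759 RPKM with overlapping plates. In the 384-well neurons the 3 lists had medians of -0.01, 0.02 and 0.01.

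Gene families that H3K9 methylation is known to repress did not share 1 direction. The Xlr genes (median log2 ratio 2.65) formed a list of their own and are not counted here. Of the clustered protocadherins, cell surface proteins that give neurons an identity code, 53 of 56 tested had a ratio below 0. In this list 14 were separated lower (8.45% of all genes were) and none was past 2-fold, with a median log2 ratio of -0.30. The median was -0.86 in oligodendrocytes and -0.14 in the 384-well neurons. These genes share their last exons within a cluster, so their values are not independent. Of 18 germline genes 5 were tested, and all 5 had a ratio above 0, with a median log2 ratio of 0.25 against -0.02 for all genes. Of the 5, 2 were separated higher (4.71% of all genes were) and none was past 2-fold. *Brdt*, a testis bromodomain gene, was at 4.71, 4.80, 4.91 and 4.25 RPKM against 5.98, 5.66, 5.77 and 5.57 RPKM, and 4 of the 5 had a ratio below 0 in the 384-well neurons. Of 18 imprinted genes 12 had a ratio below 0, and 5 were separated lower and 1 higher (8.45% and 4.71% of all genes were). Of the 18, 2 were past 2-fold lower (1.6% of all genes were), 1 of them with separated plates. That gene, *Ndn* of the Prader-Willi region, was at 6.04, 7.46, 6.47 and 5.99 RPKM against 2.71, 1.56, 1.84 and 2.14 RPKM. *Ube3a* of the neighbouring Angelman region was separated higher, at 55.4 and 61.8 RPKM, and the non-coding *Meg3* stood at 736 and 748 RPKM.

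The H3K9 machinery itself was even apart from *Ehmt1*. The 12 methylation writers and partners had a median log2 ratio of 0.00 with *Ehmt1* as the 1 separated member, and *Setdb1*, the other main H3K9 methyltransferase of neurons, was at 24.1 and 25.4 RPKM. Of 12 HP1 readers and H3K9 demethylases, *Kdm3b* (8.45 against 7.39 RPKM) and *Kdm4a* (7.61 against 6.36 RPKM) were separated lower, as were 8.45% of all genes. Among 191 genes tested near *Ehmt1* on chromosome 2, 3 were past 2-fold higher and 4 lower with separated plates, beside 0.352% and 1.17% of all genes. A ratio below 0 was found for 109 of the 191 and for 14186 of all 26120 genes. The 1 protein-coding gene among the 3 was *Fcna*, a ficolin of the lectin complement pathway, at 0.0327, 0.598, 0.395 and 0.566 RPKM against 1.89, 1.27, 1.94 and 1.01 RPKM. In the 384-well pools *Fcna* was at 0.611 and 0.609 RPKM.

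Within inhibitory nuclei alone, where 62 and 43 nuclei stand behind the means, 991 of 26375 genes (3.76%) were past 2-fold higher and 1587 (6.02%) lower. Without the pair of *Pdgfra* nuclei they were 835 and 1755. Among genes with a mean of at least 5 RPKM in 1 genotype, *Cspg4*, *Gpr17*, *Neu4* and *Pdgfra* were among the 6 highest only through these nuclei. *Gpr17* was at 0.161 and 22.7 RPKM with them. *Folh1* (0 against 5.87 RPKM) and the T cell receptor joining segment *Traj3* (0 against 8.27 RPKM) were among the highest with and without them, and *Traj3* was above 0 in 13 of 265 labelled Ehmt1delta/+ and 6 of 253 WT neurons. Without them the highest also held *Traj18*, *Xlr3b*, *Ntng2* (1.16 against 7.06 RPKM) and *Rreb1* (6.19 against 30.1 RPKM). The lowest were *Rmst* (7.20 against 0.0530 RPKM), *Calb2*, which encodes calretinin (16.4 against 0.709 RPKM), *mt-Tl1*, *Fn1* (5.62 against 0.373 RPKM), *Egr1* and *Arc* (15.4 against 1.91 RPKM), the same 6 with and without the pair. *Calb2* was above 0 in 22 WT and 10 labelled Ehmt1delta/+ neurons and its plates overlapped.

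The 384-well pools came from mice of another genotype by label and shared part of these differences. Of the 92 higher genes 54 were tested there, 12 (22.2%) were past 2-fold in the same direction and 44 (81.5%) had the same sign, where 0.384% of all genes tested in both formats were past 2-fold higher and 52.3% of those above 0 in the 96-well neurons were above 0 in the 384-well ones. Of the 305 lower genes 271 were tested, 22 (8.12%) were past 2-fold and 202 (74.5%) had the same sign, where 0.689% of all genes were past 2-fold lower and 63.5% of those below 0 kept that sign. In turn, 13.04% of the genes past 2-fold higher in the 384-well neurons and 13.3% of those lower were in the 96-well lists. Over all 23941 genes tested in both formats, 58.5% had the same sign. The 12 higher genes, named here after their values were seen, were *Apol7b*, *Aspg*, *C1s1*, *C1ra*, *C1rb*, *Cd6*, *Krt7*, *Lama2*, *Xlr3a*, *Gm9989*, *Gm10435* and *5330416C01Rik*. *C1s1* was at 0.686 and 2.40 RPKM in 384-well neurons, and *Lama2*, a laminin subunit, at 0.314 and 0.826 RPKM (0.379 and 0.889 RPKM in 96-well neurons). Among the 22 lower genes were the transcription factors *Nr2f2* (2.10 against 0.772 RPKM in the 384-well neurons), *Meis1* (0.797 against 0.263 RPKM) and *Sox9* (0.810 against 0.353 RPKM), together with *Baiap3*, *Zfp951* and the calpain *Capn11* (4.91 against 0.535 RPKM). The share of the called genes that also passed 2-fold in oligodendrocytes was 16 of 28 tested (57.1%) on the higher side, against 3.45% of all genes, and 100 of 221 (45.2%) on the lower side, against 7.66%. The 28 included the 6 Xlr copies, which share reads, and the 221 included the 19 mitochondrially encoded genes. The genes counted are therefore not independent, and the oligodendrocytes came from the same pools.

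**Figure D5:**
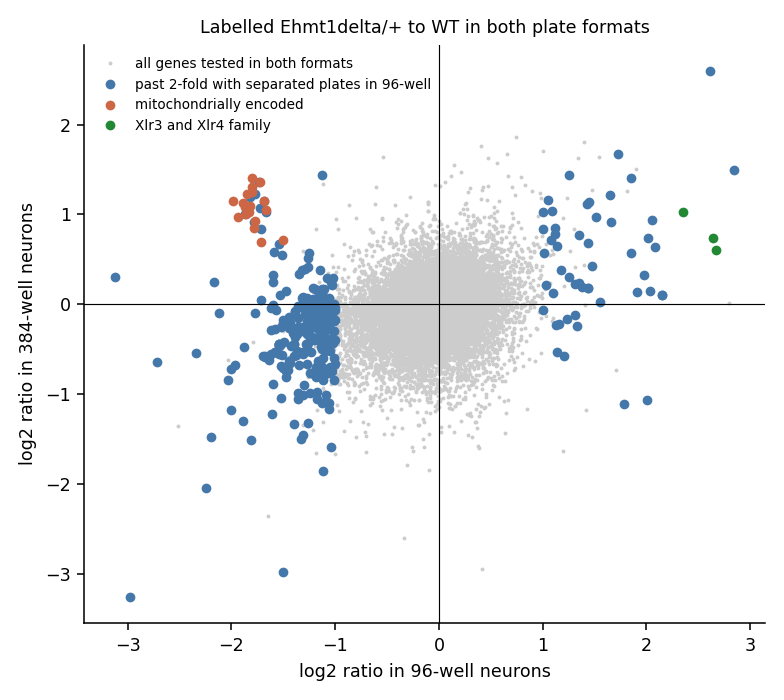
Log2 ratio of labelled Ehmt1delta/+ to WT in 96-well neurons (x) and 384-well neurons (y) for 23941 genes tested in both formats (grey), with genes past 2-fold and separated in the 96-well neurons in blue, mitochondrially encoded genes in orange and Xlr genes in green. The mitochondrial genes lie in the upper left, opposite in sign between the formats, while 44 of the 54 higher genes lie above 0 on the y axis.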

How the data were processed

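The 96-well neurons of 2 genotypes (1 pool of 3 mice each) were compared by single-nucleus RamDA-seq. The authors sorted nuclei by DNA stain after an iodixanol gradient, trimmed reads with Fastq-mcf, mapped them to mm10 with HISAT2 2.0.4, filtered nuclei with RSeQC and featureCounts on measures that included the share of mitochondrial reads, and counted reads per gene with featureCounts of Subread 1.5.0 (submitters' processing notes and the paper's methods). They deposited RPKM values for 52636 genes and cell type labels, and 736 columns of nuclei were not used here. Of the 96-well values above 0, 69.2% were whole reads within 0.01, and the source of the others was not tested. Close copies may share reads. Per-nucleus read totals were recovered from these steps.

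Pool means, log2 ratios after adding 0.1 RPKM, plate means, class shares and ratios weighted to equal class shares were computed with SciPy 1.17.1, numpy 2.4.6 and pandas 2.3.3 under Python 3.11.15, drawn with matplotlib 3.10.9, and tested on simulated data. Genes above 0 in at least 10% of the neurons of 1 genotype were tested. The authors' test over nuclei was not used, since nuclei are not replicates. Named genes were *Ehmt1*, *Ehmt2*, *Slc17a7*, *Gad1*, *Rorb*, *Snap25* and *Casp1* always, then the 12 highest and 12 lowest by class-standardized ratio among genes with separated plates and the same sign in excitatory nuclei, the 6 highest and 6 lowest within inhibitory nuclei among genes of at least 5 RPKM, and, per list, members past 2-fold with separated plates (up to 6) or else the 3 of highest mean. Small RNAs and predicted genes known by a number only were passed over (10 of the highest and 4 of the lowest). Other names, such as the class genes and the genes shared by both formats, were chosen after their values were seen. Some items are not reported here. The members, the 31 gene lists and the rules were chosen with earlier results of these data known. Coordinates are those of GENCODE M21 on mm10, and promoter windows are RefSeq's on GRCm38.p6. Alternatives were other pseudocounts (0.01 and 1 RPKM), filters (none and 25%), scalings, class rules (marker lists, 4 times the other gene), plates left out and thinned reads.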

Additional observations from a re-analysis of the deposited data

Results flagged for a closer look

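In 64 groups of 4 plate values (the named genes of the leading lists and the inhibitory share, per genotype), 4 had a plate far from the other 3, where chance gives about 1 in 20. *Ehmt1* was at 19.04 RPKM on WT plate 2 against 18.6 to 18.7 RPKM on the others, a small gap beside the difference between genotypes. *Zfp951* was at 2.67 RPKM on WT plate 5 against 1.81 to 1.85 RPKM. *Mlc1* was at 0.0345 RPKM on plate 7 labelled Ehmt1delta/+ and 0 on the other plates of that pool. *mt-Tm* was at 1.36 RPKM on plate 2 labelled Ehmt1delta/+ against 0.261 to 0.403 RPKM.

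The mitochondrially encoded genes differed in opposite directions between plate formats, with median log2 ratios of -1.81 (96-well neurons) and 1.09 (384-well neurons). This was the 1 list of 25 compared in which all tested members had one sign in one format and the other sign in the other. The difference between formats was not tested, since each is 1 pool per genotype, and plate format, mice and the iTg transgene cannot be told apart.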

How the results depend on the processing

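No paired analysis was possible because each genotype is 1 pool and plate codes name technical parts of it. Counts of genes past 2-fold depended most on low values. With a pseudocount of 1 RPKM they were 25 higher and 119 lower in all neurons (20 and 108 with separated plates), 39 and 131 within excitatory and 344 and 498 within inhibitory nuclei. With 0.01 RPKM there were 260 higher. With no filter there were 1001 higher and 1157 lower (201 higher with separated plates), and with a filter at 25% 42 higher and 228 lower (35 higher with separated plates). On the 3 plate codes used for both genotypes 155 higher and 461 lower genes were separated and past 2-fold (233 and 559 past 2-fold alone), and leaving out each plate in turn gave 104 to 131 and 318 to 440. The inhibitory share stayed lower in labelled Ehmt1delta/+ under both other class rules (22.1% against 16.6% by marker lists, 23.3% against 16.03% at 4 times the other gene) and with each plate left out, where the gap ran from 6.52 to 10.5 percentage points. Of the list medians, the inhibitory genes reversed to 0.13 with equal class shares, where excitatory genes moved to -0.15. With a pseudocount of 1 RPKM the medians were 1.55 for the Xlr list, -0.64 for immediate early genes, -0.21 for astrocyte genes and 0.16 for germline genes. Without the pair of *Pdgfra* nuclei, an alternative chosen after seeing the data, 2 oligodendrocyte precursor genes had a median of -0.59 instead of 2.10, and 96 higher and 336 lower genes were separated and past 2-fold. Of 65 named genes past 2-fold, 60 remained so with equal class shares and 63 without the highest nucleus of each pool. On the shared plate codes 60 remained so and after rescaling 63, and none reversed. Genes were named partly by the class-standardized ratio and partly for passing 2-fold with separated plates, so this outcome was partly set in advance. Apart from the counting intervals, precision is limited by 1 pool per genotype.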

Other observations

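Several genes that were lower in both plate formats lie near one another on their chromosomes. Of the 22 such genes, 5 start between chr12:18559615 and chr12:20815779 (*Gm19786*, *Gm5953*, *Gm9255*, *Gm40853* and *1700030C10Rik*), 3 between chr13:3298887 and chr13:3363862 (*Gm9616*, *Gm8616* and *Gm16505*) and 2 between chr8:20001099 and chr8:20040320 (*Gm40466* and *Gm20778*). *Gm40466* was at 15.9 and 1.92 RPKM in the 96-well neurons, 11.7 and 1.13 RPKM in the 384-well neurons and 9.62 and 0.923 RPKM in the 96-well oligodendrocytes. Of all 17 genes tested in both formats between 18 and 21 Mb of chromosome 12, a window drawn after these values were seen, 14 had a ratio below 0 in both, with median log2 ratios of -0.52 and -0.84. The same held for 4 of 4 genes in the window on chromosome 13 and 6 of 6 in that on chromosome 8. These counts include the 5, 3 and 2 genes that placed the windows, so they were partly set in advance. Of all genes tested in both formats and below 0 in the 96-well neurons, 63.5% were below 0 in the 384-well ones.

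The Y-linked genes *Ddx3y*, *Eif2s3y*, *Kdm5d* and *Uty* were all at 0 in 11 of 265 neurons labelled Ehmt1delta/+ (4.15%, 2.09 to 7.31) and in 0 of 253 WT neurons (exact upper bound 1.45%). The 11 nuclei lay on plates 4, 5 and 7 (5, 4 and 2 nuclei) and none of them held *Xist*. Their median read total was 350785, against 352794 in the other neurons of the pool. In the 384-well neurons 0 of 285 WT and 1 of 306 labelled Ehmt1delta/+ nuclei had all 4 at 0, and in the 96-well oligodendrocytes 1 of 73 and 3 of 71. *Eif2s3y* was above 0 in 96.0% of WT and 81.1% of labelled Ehmt1delta/+ neurons, at 36.4 and 32.1 RPKM.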
